A study of Mus musculus with 36 samples.

Results

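The collagen chain genes were followed across 36 arrays of Bhas 42 cells, a mouse fibroblast line. The line derives from BALB/c 3T3 and holds the viral Ha-ras gene, so every group shares that oncogene. A list of 34 collagen symbols was matched to 51 probes by accession. A gene was kept if a probe was well above background on 3 of the 4 arrays of at least 1 group, which left 33 of the 34 genes among 32491 gene names tested. The gene left out was Col8a2, a chain of short-chain type VIII collagen, whose only probe was well above background on 1 of 36 arrays. Each of 9 groups held 4 arrays. The controls were water at 2%, a second water group at 2% kept as the control of Min-U-Sil 5, and DMSO at 0.1%. NM-203, an amorphous silica made by synthesis, was given at doses of 1, 2 or 5 µg/cm². Diatomaceous earth, called DE here, was given at 5 µg/cm². Min-U-Sil 5, which is crystalline, was given at 20 µg/cm². TPA, a phorbol ester that promotes tumours, was given at 0.05 µg/ml in DMSO. Cells were treated on day 4 and collected on day 6, after 48 h. All samples came from 1 cell line. The series record speaks of 4 independent experiments. Which array came from which experiment is not in the labels, so the p-values measure only the spread between these samples, which may be technical.

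Collagens are secreted proteins whose chains wind into triple helices before they assemble outside the cell. Fibrillar collagens such as types I, II, III, V, XI and XXVII form fibrils, type IV forms the sheet of basement membranes, and type VI forms beaded filaments. FACIT collagens sit on the surface of fibrils, multiplexins lie at basement membranes, and transmembrane collagens stay anchored in the cell. Fibroblasts are a main source of the fibrillar chains. Loss of fibrillar matrix is a long-known trait of oncogenically transformed fibroblasts, and Bhas 42 cells are used in assays that score transformed foci.

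Levels are log2 of the array intensity minus the 75th percentile of the same array, so a negative level is dimmer than that percentile. Levels of different probes are not ranked against each other; for partner chains only the change in their difference on the same array is given. A gene was called higher or lower at a Benjamini-Hochberg adjusted p under 0.05 (limma, all genes tested). Values after ± are standard errors (SE) from that fit over groups of 4 arrays. The median change of all genes tested stands beside the median of all collagens in each comparison. For medians within a slide, which rest on few arrays, it was not computed. In bulk RNA, fewer cells of a type and less RNA per cell cannot be told apart.

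Replicates correlated across genes within groups at r of 0.953 to 0.993. The arrays lay on 5 slides scanned on 2 days. Slide 4 stood apart: its 6 arrays were Min-U-Sil 5 replicates 1, 2 and 4, replicates 2 and 3 of its water control, and NM-203 at 2 µg/cm² replicate 2. They had first principal component scores of 54.8 to 153, and values without them are given beside the comparisons that hold them. Between 55.1% and 76.2% of probes were well above background per array. Of 10 fibroblast markers 9 were well above background on all 36 arrays and Fap on 15. Markers of other cell types were mixed. Ptprc, Epcam, Tek, Tie1, Matn1, Matn3, Hapln1 and Alpl were well above background on 0 arrays. On all 36 were Csf1r, Itgam, Cd68, Cd14 and Lyz2 (macrophage list), Krt8, Krt5 and Krt14 (epithelial), Pecam1 and Vwf (endothelial), Sox9 and Comp (chondrocyte) and Runx2 (osteoblast).

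**Figure D1:**
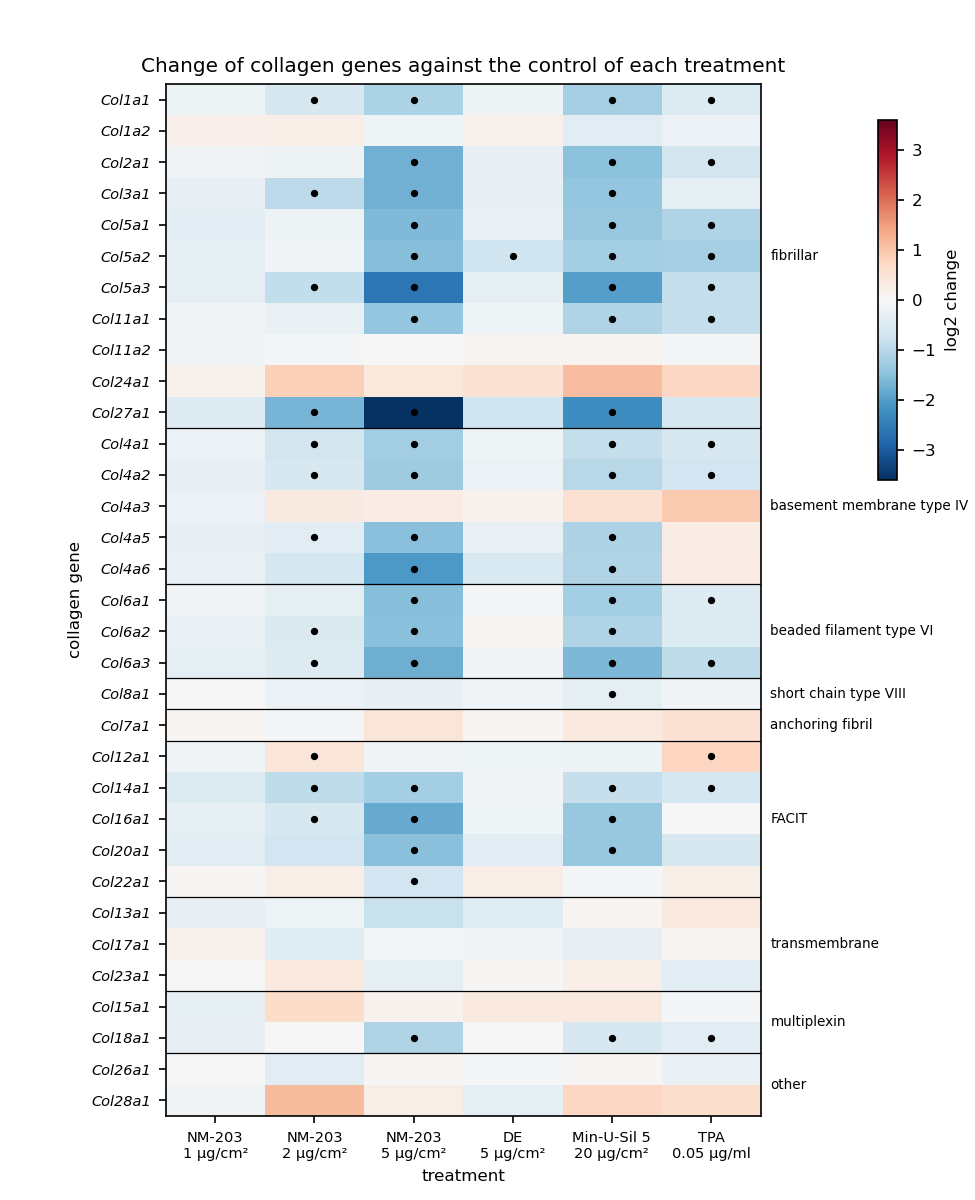
Log2 change of each of the 33 collagen genes (rows, grouped by class) against its own control in the 6 treatment comparisons (columns). Blue is lower, red is higher, and a black dot marks a call by limma. Dots are dense for NM-203 at 5 µg/cm² and Min-U-Sil 5 (20 each), fewer for TPA (13), and 1 for DE.

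NM-203 at 5 µg/cm² was compared with water to see what the highest dose of amorphous silica changed. Of 33 collagens 20 fell and 0 rose, where 33.1% of all genes tested were called, 19.1% lower and 14.0% higher. With arrays scaled on the median gene instead, the split over all genes was 4416 higher and 4065 lower against 4549 and 6191 in the main scaling, and the collagens stood at 20 lower and 1 higher. The median change of the collagens was -1.24, with a range from -3.56 to 0.44, and that of all genes was 0.01. By class, 8 of 11 fibrillar chains fell (median -1.52), as did 4 of 5 type IV chains (median -1.28), 3 of 3 type VI chains (median -1.53), 4 of 5 FACIT chains (median -1.24) and 1 of 2 multiplexins. None of the 3 transmembrane collagens passed, nor did Col7a1, the chain of anchoring fibrils (0.44 ± 0.26), Col8a1, Col26a1 or Col28a1. Within slide 1, which held 2 NM-203 arrays and 1 water array, the median of the 33 changes was -1.19, and within slide 3, with 1 array of each, it was -1.30. In the same comparison 7 of 10 fibroblast markers fell, and their summed level was 9.19 to 9.64 against 9.77 to 9.96 in water. A summed level is log2 of the added intensities of the markers tested, so the brightest probes weigh most. These were Itgam for macrophage, Runx2 for osteoblast and Sox9 for chondrocyte markers. Over all arrays Sox9 lay at 0.20 to 3.11, while Comp reached at most -2.23 and Chad -3.02. Of the other marker lists, 3 of 4 osteoblast, 2 of 3 chondrocyte, 2 of 4 endothelial, 2 of 6 macrophage and 1 of 5 epithelial markers tested fell and 0 rose. The summed chondrocyte level was 1.86 to 2.16 against 2.66 to 3.14 in water, the osteoblast level -1.16 to -0.95 against -0.32 to 0.06, and the endothelial level -2.51 to -1.88 against -1.69 to -1.37. The macrophage level was 3.99 to 4.41 against 4.29 to 4.81, and the epithelial level was -1.60 to -0.99 against -1.23 to -0.76. The part of the marker lists in the collagen result was not tested.

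Col27a1, a fibrillar chain of cartilage and other connective tissue, had levels of -5.18, -3.68, -4.17 and -3.28 after NM-203 at 5 µg/cm². In water it lay at -0.73, -0.39, -0.27 and -0.70. The groups did not overlap, and the fall was -3.56 ± 0.36, or 11.8-fold (adjusted p = 3.05e-09). Its probe, the single one matched to Col27a1, was well above background on 3 of the 4 NM-203 arrays of this dose and on all other arrays, so the size of the fall rests in part on a value at background. Col5a3, the third chain of type V collagen, which helps start fibrils, had -1.33, -1.66, -2.23 and -1.41 against 0.94, 1.02, 0.95 and 0.85 in water. All treated arrays were lower, by 2.59 ± 0.16 on the log2 scale or 6.04-fold (adjusted p = 3.65e-13). A dimmer Col5a3 probe fell by 1.28 ± 0.29. Col4a6, a type IV chain of a few basement membranes, had -6.39, -6.04, -5.06 and -5.46 against -3.67, -3.63, -3.83 and -3.58, a fall of -2.06 ± 0.26 (adjusted p = 1.83e-07). Only 1 of those 4 treated arrays was well above background, against 4 of 4 in water. Col16a1, a FACIT chain that binds near the surface of cells and fibrils, had 2.55, 2.52, 2.12 and 2.56 against 4.10, 4.36, 4.27 and 4.31. It fell by 1.82 ± 0.11, or 3.54-fold (adjusted p = 3e-13), with no overlap between the groups, and its other probe fell too (adjusted p over all probes 6.96e-08).

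The main interstitial chains fell less than these. Col3a1, the single chain of type III collagen, fell 3.32-fold, Col5a1 3.03-fold, Col5a2 2.87-fold, Col2a1 3.32-fold, Col11a1 2.60-fold and Col1a1 2.19-fold. In the basement membrane class Col4a1 and Col4a2, the chains of nearly all basement membranes, fell 2.36-fold and 2.42-fold, and Col4a5 fell 2.86-fold. The type VI chains fell 2.88-fold (Col6a1), 2.83-fold (Col6a2) and 3.41-fold (Col6a3). Among the FACIT chains Col14a1 fell 2.36-fold, Col20a1 2.86-fold and Col22a1 1.62-fold. Col18a1, the multiplexin that holds the endostatin fragment, fell 2.11-fold. Each of these genes but Col22a1 (adjusted p = 0.0416) had all 4 treated arrays below all 4 water arrays. The share of all genes tested that did so was not counted.

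**Figure D2:**
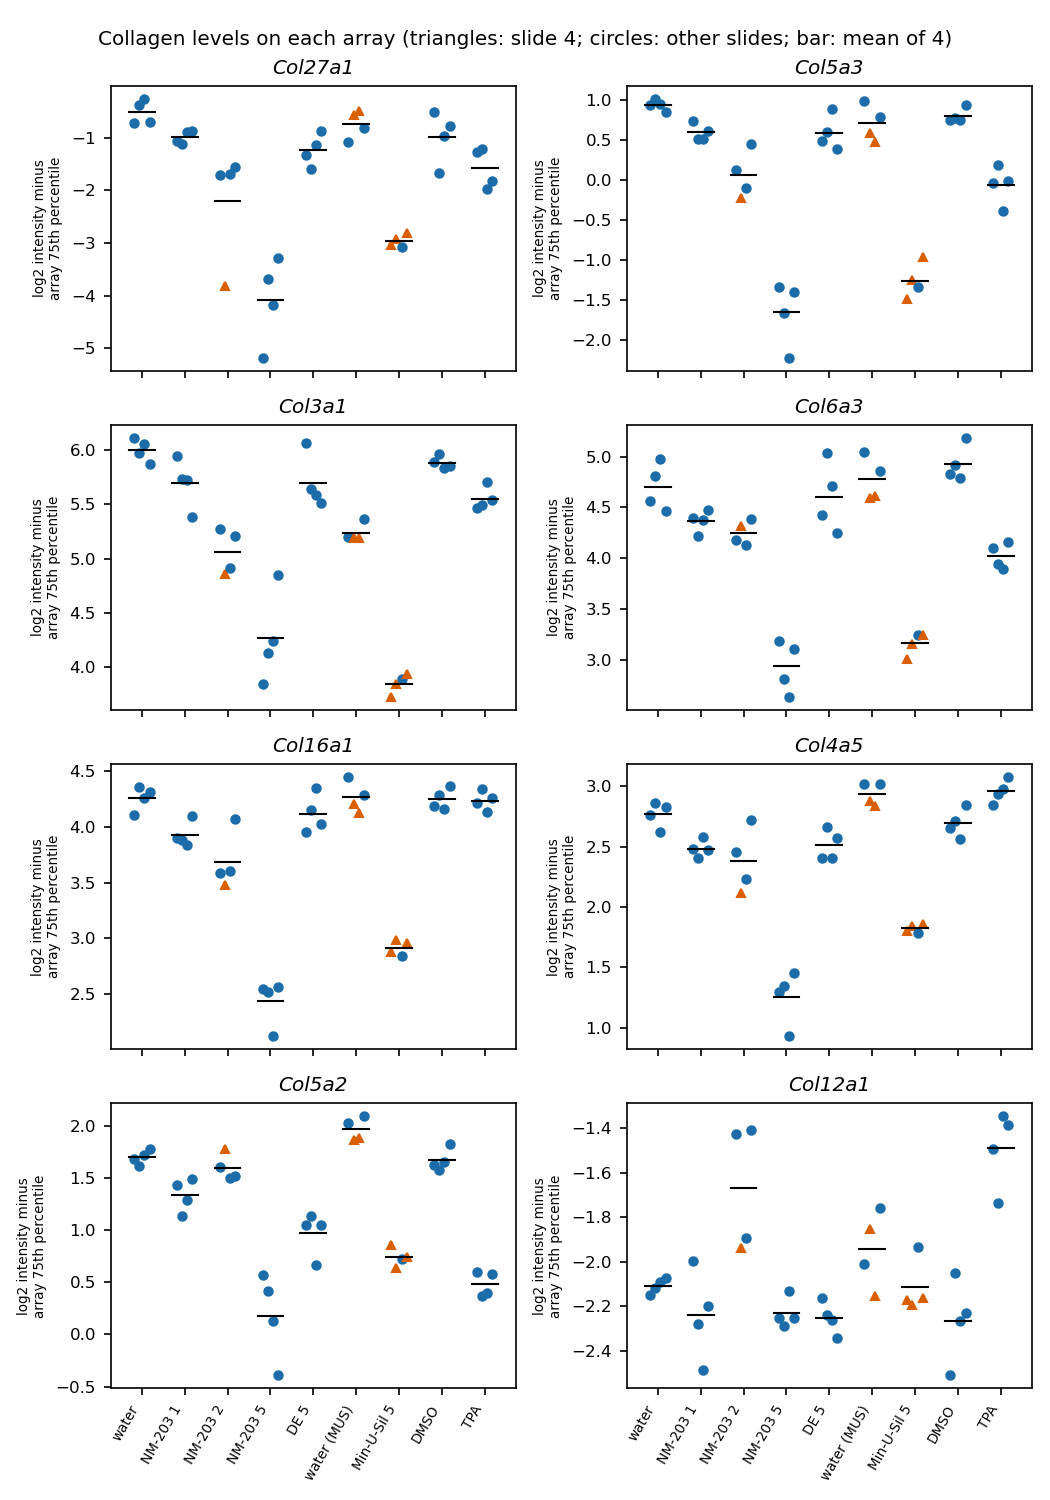
Levels (log2 intensity minus the array's 75th percentile) of 8 collagen genes on all 36 arrays by group. Each point is an array, triangles are arrays of slide 4, and the bar is the mean. Col16a1 and Col4a5 are low in NM-203 at 5 µg/cm² and Min-U-Sil 5 but not in TPA, while Col5a2 is low in all 3 and Col12a1 is highest in TPA.

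Min-U-Sil 5 at 20 µg/cm² was compared with its own water control, to place a crystalline silica beside the amorphous one. Of 33 collagens 20 fell and 0 rose, where 25.6% of all genes were called, 13.9% lower and 11.6% higher. The median change was -0.85 (all genes 0.04). The classes were 8 of 11 fibrillar (median -1.22), 4 of 5 type IV, 3 of 3 type VI (-1.22), 3 of 5 FACIT (-0.84), 1 of 2 multiplexins and Col8a1. Without the arrays of slide 4, which leaves 1 treated and 2 control arrays, the median change was -1.10 (all genes -0.01). No count is given there, since the lone treated array would have to be assumed to vary like the other groups. Within slide 4 the median of the 33 changes was -0.78, and within slide 5, with 1 treated array, 26 of the 33 were negative. Here 6 of 10 fibroblast markers fell, and their summed level was 9.51 to 9.63 against 9.78 to 10.2 in the control. Of the other lists, 2 of 3 chondrocyte, 1 of 4 endothelial, 1 of 6 macrophage, 1 of 5 epithelial and 0 of 4 osteoblast markers fell, and 0 rose. The summed chondrocyte level was 0.32 to 0.91 after Min-U-Sil 5, below all 4 control arrays. The part of the markers in the collagen result was not tested.

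Col27a1 again changed most, with -3.04, -2.92, -3.08 and -2.82 after Min-U-Sil 5 against -1.09, -0.56, -0.49 and -0.81 in its control. This was a fall of -2.23 ± 0.36, or 4.68-fold (adjusted p = 1.73e-05), without overlap. Col5a3 stood at -1.48, -1.25, -1.34 and -0.97 against 0.99, 0.59, 0.48 and 0.79, a fall of -1.97 ± 0.16 (adjusted p = 2.48e-10). Col6a3, the largest chain of type VI collagen, stood at 3.00, 3.15, 3.24 and 3.24 against 5.05, 4.59, 4.61 and 4.86. It fell by 1.62 ± 0.15, or 3.06-fold (adjusted p = 1.21e-09). Col2a1, the chain of type II collagen of cartilage, stood at 0.41, 0.62, 0.50 and 0.68 against 1.94, 2.11, 2.05 and 2.07, a fall of -1.49 ± 0.13 (adjusted p = 1.08e-09). In all 4 genes every treated array lay below every control array, a count not made over all genes.

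NM-203 at 5 µg/cm² and Min-U-Sil 5 have separate water controls, and their doses differ. They shared 19 lower collagens, 95% of each list. The overlap over all genes tested was not counted. Col22a1 was lower after NM-203 alone and Col8a1, the type VIII chain, after Min-U-Sil 5 alone (-0.35 ± 0.12, adjusted p = 0.0306, against -0.29 ± 0.12 and 0.0674 for NM-203). Col8a1 lost its call with slide as a block (adjusted p = 0.0644) and Col22a1 with scan day as a block (adjusted p = 0.0671). The test of the difference between both effects called 0 of 33 collagens at adjusted p under 0.05 (limma), where 0.200% of all genes were called (0.0923% higher, 0.108% lower). At an unadjusted p under 0.05 there were 7 collagens, and the share of all genes at that p was not counted. The median difference, NM-203 effect minus Min-U-Sil 5 effect, was -0.30 (all genes -0.03). Without the arrays of slide 4 it was -0.14 (all genes 0.01). For Col27a1 the difference was -1.33, with a 95% interval of -2.38 to -0.28 (adjusted p = 0.462), so a miss of the threshold does not show equal effects.

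TPA was compared with DMSO, its solvent. Of 33 collagens 12 fell and 1 rose, where 11.7% of all genes were called, 6.78% lower and 4.89% higher. The median change was -0.33 (all genes -0.04). With arrays scaled on the median gene 6 fell and 1 rose, and all genes split into 972 higher and 775 lower against 1589 and 2203 in the main scaling. By class, 6 of 11 fibrillar chains, 2 of 5 type IV chains, 2 of 3 type VI chains, 1 of 5 FACIT chains and 1 of 2 multiplexins fell. Without TPA replicate 3 the count was 9 in place of 13, and over all genes 2873 in place of 3792. Within slide 1, with 2 TPA arrays and 1 DMSO array, the median of the 33 changes was -0.40. In this comparison 2 of 10 fibroblast markers fell, and their summed level was 9.71 to 9.88 against 9.83 to 10.1. Of the other lists, 2 of 4 osteoblast, 1 of 4 endothelial, 1 of 6 macrophage, 1 of 5 epithelial and 1 of 3 chondrocyte markers fell, and 1 chondrocyte marker rose. Their part was not tested.

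The type V chains led this comparison. Col5a2 stood at 0.59, 0.37, 0.40 and 0.57 after TPA against 1.63, 1.57, 1.65 and 1.83 in DMSO, a fall of -1.19 ± 0.14, or 2.28-fold (adjusted p = 1.99e-07). Col5a1 stood at 2.33, 2.40, 2.31 and 2.36 against 3.20, 3.52, 3.38 and 3.68, a fall of -1.09 ± 0.13 (adjusted p = 2.81e-07). These 2 chains make the common form of type V collagen, and neither overlapped with its control. Col6a3 had 4.10, 3.94, 3.89 and 4.16 against 4.83, 4.92, 4.79 and 5.18 (-0.91 ± 0.15, adjusted p = 4.85e-05). The dimmer Col6a3 probe changed by -0.73 ± 0.25 and was not called (adjusted p over all probes 0.0592). Col5a3 had -0.03, 0.19, -0.39 and -0.01 against 0.75, 0.77, 0.75 and 0.94 (-0.86 ± 0.16, adjusted p = 0.000398). Its dimmer probe changed by -0.40 ± 0.29 and was not called (adjusted p over all probes 0.459). The other lower genes were Col1a1, Col2a1, Col11a1, Col4a1, Col4a2, Col6a1, Col14a1 and Col18a1, with falls between 1.33-fold (Col18a1) and 1.82-fold (Col11a1). A dimmer Col11a1 probe changed by -0.11 and was not called (adjusted p over all probes 0.889). With slide as a block 11 collagens were called in place of 13, without Col18a1 (-0.24, adjusted p = 0.338) and Col14a1 (-0.61, adjusted p = 0.0502). Over all genes 3156 were called in that fit, in place of 3792.

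Col12a1, a FACIT chain on the surface of type I fibrils, was the one collagen that rose after TPA. It had -1.49, -1.74, -1.35 and -1.38 against -2.51, -2.05, -2.27 and -2.23 in DMSO, a rise of 0.78 ± 0.12, or 1.71-fold (adjusted p = 3.46e-05), with no overlap. Its other probe gave 0.20 ± 0.35 (adjusted p over all probes 0.793), so the rise was seen with 1 probe and not with the other. The same gene was not called after NM-203 at 5 µg/cm² (-0.12 ± 0.12) or Min-U-Sil 5 (-0.17 ± 0.12), and its change after NM-203 at 5 µg/cm² minus that after TPA was -0.90 ± 0.17 (adjusted p = 0.000408).

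All 12 collagens that fell after TPA were also among the 20 lower after NM-203 at 5 µg/cm² and among the 20 lower after Min-U-Sil 5, 60% of each of those lists. The same overlap was not counted over all genes tested. The direct test, NM-203 effect at 5 µg/cm² minus TPA effect, called 14 of 33 collagens, all with the lower value after NM-203, where 14.8% of all genes were called, 7.05% lower and 7.74% higher. The median difference was -0.65 (all genes -0.01). With arrays scaled on the median gene 8 were called, where 1983 of all genes were, against 4806 in the main scaling. Col27a1 differed by -2.97 ± 0.51 (adjusted p = 0.000115) and Col4a6 by -2.37 ± 0.37 (adjusted p = 3.48e-05), but their probes were well above background on 3 and 1 of the 4 NM-203 arrays, so these sizes are uncertain. Col16a1 differed by -1.81 ± 0.16 (adjusted p = 1.94e-08), with 4.22, 4.34, 4.13 and 4.26 after TPA against 4.19, 4.29, 4.17 and 4.37 in DMSO. Col4a5 differed by -1.78 ± 0.15 (adjusted p = 1.42e-08), from a change of 0.26 ± 0.11 after TPA that was not called. Col3a1 differed by -1.40 ± 0.21 and Col5a3 by -1.73 ± 0.23. For Col5a1 and Col5a2 the differences were -0.50, with an interval of -0.87 to -0.13 (adjusted p = 0.0603), and -0.33, with an interval of -0.73 to 0.06 (adjusted p = 0.315). Neither was called, and the intervals allow a larger fall after NM-203. Col11a1, Col4a2, Col14a1 and Col20a1 were not called either, with adjusted p from 0.0929 to 0.151.

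**Figure D3:**
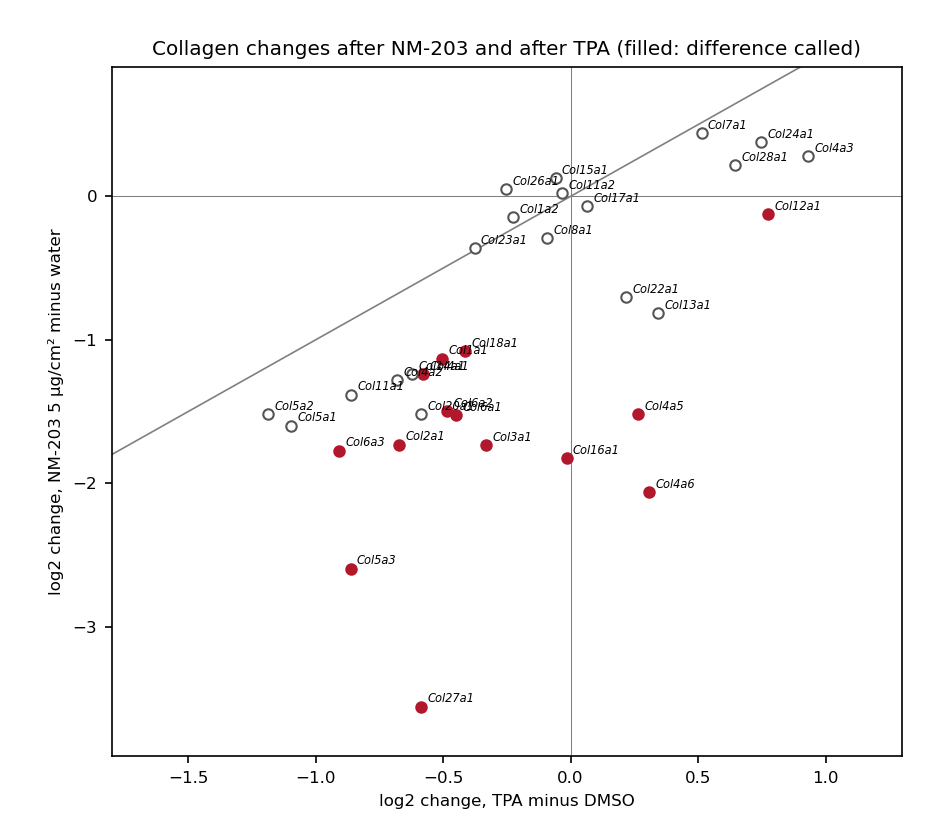
Log2 change of each collagen gene after TPA (x axis, against DMSO) and after NM-203 at 5 µg/cm² (y axis, against water). Filled points are the 14 genes whose difference between the changes was called, and the diagonal marks equal changes. Col16a1, Col4a5 and Col4a6 lie far below the diagonal near or right of 0 on the x axis, and Col5a1 and Col5a2 lie nearest to it among the genes that fell.

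The type IV genes differed by gene pair. Col4a1 and Col4a2, which lie head to head in the genome, both fell after TPA (-0.58 ± 0.13 and -0.68 ± 0.19) as well as after both silicas. Col4a5 and Col4a6, another head-to-head pair on the X chromosome, fell after NM-203 at 5 µg/cm² and Min-U-Sil 5 and had changes of 0.26 ± 0.11 (adjusted p = 0.124) and 0.31 ± 0.26 (adjusted p = 0.543) after TPA. A dimmer Col4a5 probe was called in none of the 6 treatment comparisons (-1.22 after NM-203 at 5 µg/cm², adjusted p over all probes 0.174). Upstream sequences from 250 to 51 bases before the transcript start (RefSeq, GRCm38.p6) are shown for 5 genes that fell after silica and for Col1a2, which did not. Col4a5 and Col4a6 are the neighbouring pair, Col5a3 and Col3a1 are fibrillar chains that fell, and Col16a1 is a FACIT chain whose change after NM-203 at 5 µg/cm² differed from that after TPA. Capitals mark CCAAT or GGGCGG, the letters of a CCAAT box and a GC box, on either strand.
Col1a2 (chr6:4505368-4505567, plus strand): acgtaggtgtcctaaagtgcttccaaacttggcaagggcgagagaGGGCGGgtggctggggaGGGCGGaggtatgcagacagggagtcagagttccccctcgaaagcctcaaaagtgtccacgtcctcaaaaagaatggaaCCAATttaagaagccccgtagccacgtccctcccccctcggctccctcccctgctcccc
Col3a1 (chr1:45311288-45311487, plus strand): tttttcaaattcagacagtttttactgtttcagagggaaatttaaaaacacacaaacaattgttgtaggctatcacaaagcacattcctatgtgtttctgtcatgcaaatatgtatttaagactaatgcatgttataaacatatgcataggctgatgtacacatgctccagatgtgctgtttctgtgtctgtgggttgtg
Col5a3 (chr9:20815118-20815317, minus strand): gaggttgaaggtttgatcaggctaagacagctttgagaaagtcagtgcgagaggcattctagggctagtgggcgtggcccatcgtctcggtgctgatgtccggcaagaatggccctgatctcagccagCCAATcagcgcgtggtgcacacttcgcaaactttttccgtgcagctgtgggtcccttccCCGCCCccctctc
Col16a1 (chr4:130047590-130047789, plus strand): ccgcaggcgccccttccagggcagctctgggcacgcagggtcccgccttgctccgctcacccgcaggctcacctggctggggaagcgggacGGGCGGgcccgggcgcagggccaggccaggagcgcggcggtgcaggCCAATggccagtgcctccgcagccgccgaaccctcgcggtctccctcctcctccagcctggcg
Col4a5 (chrX:141475169-141475368, plus strand): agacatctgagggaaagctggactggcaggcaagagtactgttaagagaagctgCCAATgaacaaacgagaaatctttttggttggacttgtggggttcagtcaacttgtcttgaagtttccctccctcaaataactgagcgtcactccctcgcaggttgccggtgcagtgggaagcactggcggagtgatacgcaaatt
Col4a6 (chrX:141474127-141474326, minus strand): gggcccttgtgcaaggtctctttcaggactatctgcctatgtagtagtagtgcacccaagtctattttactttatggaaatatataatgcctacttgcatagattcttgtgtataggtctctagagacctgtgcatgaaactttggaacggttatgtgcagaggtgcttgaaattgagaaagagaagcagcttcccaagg
RefSeq places the starts of Col4a5 and Col4a6 1343 bases apart on opposite strands, and Col4a5 has 1 CCAAT while Col4a6 and Col3a1 have neither motif in this window. Of the 34 collagens 26 had an entry. CCAAT, searched on both strands, was in 8 of the 26 and in 28.4% of 32851 promoter windows of the same length. GGGCGG was in 13 of the 26 and in 24.6% of all windows. TGANTCA, the letters of an AP-1 site, was in 1 of the 26, Col6a1, and in 5.57% of all windows. No motif overlapped another in the 6 sequences shown, and a match is a description of letters only.

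For the lower doses of NM-203 the control was again the first water group. At 1 µg/cm² 0 of 33 collagens were called by limma, where 0.0862% of all genes were called (0.0431% lower and 0.0431% higher). At an unadjusted p under 0.05 (limma) there were 10 collagens, and the share of all genes at that p was not counted. The median change was -0.22 (all genes -0.02). Within slides 1, 2 and 3 the medians were -0.19, -0.12 and -0.25. Col14a1 (-0.48 ± 0.18, adjusted p = 0.551) and Col27a1 (-0.47 ± 0.36, adjusted p = 1) had the most negative changes. The Col8a1 value of replicate 2 was an outlier spot, and the fit left it out.

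At 2 µg/cm² 11 of 33 collagens fell and 1 rose, where 25.0% of all genes were called, 8.85% lower and 16.2% higher. The median change was -0.24 (all genes 0.11). Scaled on the median gene 8 fell and 0 rose, and all genes split into 3013 higher and 2317 lower against 5248 and 2877. Without the replicate on slide 4 and the other arrays of that slide 8 fell and 1 rose (all genes 3114 lower and 4649 higher). The 4 arrays of this dose share neither a slide nor a scan day with the 4 water arrays, so no value within a slide exists. With slide as a fixed block 5 collagens were called, and with scan day as a block 6. Over all genes 2328 and 1716 were called in those fits. Only NM-203 at 1 and at 5 µg/cm² had arrays of both scan days. The shift between days rests on those groups in both fits. Set against the second water group, whose arrays were scanned on the same day as these, 10 were lower, of which 5 were among the 12. All genes then split into 2561 lower and 2501 higher. The median change was -0.37 for the collagens and -0.18 for all genes. Col1a1, Col5a3, Col16a1, Col6a2 and Col6a3 were among the 11 lower genes, with changes of -0.59, -0.87, -0.58, -0.51 and -0.45. Against the second water group Col6a2 turned direction (0.12 ± 0.17, adjusted p = 0.647) and Col1a1 was not called (-0.24 ± 0.09, adjusted p = 0.0556). With slide as a block Col6a2 (adjusted p = 0.543) and Col6a3 (adjusted p = 0.0557) lost their calls. Beside these changes, 2 of 10 fibroblast markers fell, 1 of 3 chondrocyte and 1 of 4 endothelial markers fell, 1 of 6 macrophage markers fell and 1 rose, and 2 of 5 epithelial markers rose. Their part was not tested.

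Col27a1 stood at -1.72, -3.82, -1.69 and -1.55 at 2 µg/cm² against the water values above. Replicate 2, on slide 4, was far below the other 3. The change was -1.67 ± 0.36 (adjusted p = 0.000945), -1.13 ± 0.29 without that replicate, -0.90 ± 0.56 with slide as a block (adjusted p = 0.399), and -1.46 ± 0.36 against the control scanned on the same day. Col3a1 stood at 5.27, 4.86, 4.92 and 5.21 against 6.11, 5.97, 6.06 and 5.87 in water, a fall of -0.94 ± 0.15 (adjusted p = 2.66e-05). With slide as a block the change was -0.42 ± 0.19 (adjusted p = 0.218), and against the second water group it was -0.17 ± 0.15 (adjusted p = 0.441). Col14a1, a FACIT chain of soft connective tissue, stood at -2.29, -2.07, -2.30 and -2.13 against -1.25, -1.24, -1.59 and -1.11. It fell by 0.90 ± 0.18 (adjusted p = 0.000483), and with slide as a block the change was -0.74 ± 0.27 (adjusted p = 0.0956). Col5a3 stood at 0.13, -0.22, -0.10 and 0.45 against 0.94, 1.02, 0.95 and 0.85, a fall of -0.87 ± 0.16 (adjusted p = 0.000215). It was also called with slide as a block (-1.02 ± 0.25, adjusted p = 0.0122) and against the second water group (-0.65 ± 0.16, adjusted p = 0.00749). The dimmer Col5a3 probe changed by -0.67 ± 0.29 and was not called (adjusted p over all probes 0.0937). The one riser was Col12a1 (0.44 ± 0.12, adjusted p = 0.0082). Against the control of the same day its change was 0.28 ± 0.12 (adjusted p = 0.12). With slide as a block it was 0.50 (adjusted p = 0.115) and with scan day as a block 0.43 (adjusted p = 0.219). The other Col12a1 probe gave 0.08 ± 0.35 (adjusted p over all probes 0.891).

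Over water and the 3 doses in turn, the mean level of 17 of the 33 collagens went down at each step, as did that of 9.78% of all genes tested. Col5a3 had mean levels of 0.94, 0.60, 0.06 and -1.66, Col16a1 of 4.26, 3.93, 3.69 and 2.44, and Col3a1 of 6.00, 5.70, 5.07 and 4.27. For Col5a3, Col16a1 and Col3a1 the step from 2 to 5 µg/cm² was the largest, and it also spans the largest rise in dose. The scan day of the middle dose moves with this order, and its part was not tested.

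DE at 5 µg/cm² was compared with water, and with NM-203 at the same dose. Of 33 collagens 1 fell and 0 rose against water, where 1.01% of all genes were called, 0.449% lower and 0.557% higher. The median change was -0.14 (all genes -0.02), and over all genes the split was 21 higher and 6 lower when scaled on the median gene, against 181 and 146. The gene was Col5a2, with 1.04, 1.14, 0.67 and 1.05 against 1.68, 1.62, 1.72 and 1.78 in water. It fell by 0.72 ± 0.14, or 1.65-fold (adjusted p = 0.00477), without overlap. The call was lost with scaling on the median gene (adjusted p = 0.116) and in a fit of the 8 arrays compared alone (adjusted p = 0.23). Col5a1, its partner, changed by -0.25 ± 0.13 (adjusted p = 0.507). On all 4 DE arrays Col27a1 lay below all 4 water arrays, at -0.71 ± 0.36 (adjusted p = 0.5). Type VI chains lay between -0.10 and 0.06.

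NM-203 at 5 µg/cm² was lower than DE at the same dose in 20 of 33 collagens and higher in 0, where 29.2% of all genes were called, 15.2% lower and 14.0% higher (2815 lower and 4343 higher with scaling on the median gene, against 4953 and 4541). The median difference was -1.06 (all genes -0.02). Col27a1 was 7.17-fold lower, Col5a3 4.75-fold, Col16a1 3.21-fold and Col6a3 3.18-fold. The smallest called difference among the fibrillar chains was for Col5a2, at 1.74-fold (adjusted p = 2.47e-05). Col1a2 differed by -0.29, with an interval of -0.63 to 0.05 (adjusted p = 0.215).

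Type I collagen, the main fibrillar collagen, is built of Col1a1 and Col1a2 chains. Col1a1 had 5.51, 5.26, 5.31 and 5.65 after NM-203 at 5 µg/cm² against 6.51, 6.60, 6.56 and 6.59 in water. It fell by 1.13 ± 0.09 there, by 1.21 ± 0.09 after Min-U-Sil 5, by 0.50 ± 0.09 after TPA and by 0.59 ± 0.09 after NM-203 at 2 µg/cm². Col1a2 had 7.68, 7.15, 7.25 and 7.35 against 7.10, 7.76, 7.78 and 7.36, so its groups overlapped. It was not called in any of the 6 comparisons, with changes of -0.14 ± 0.17 (NM-203 at 5 µg/cm²), -0.37 ± 0.17 (Min-U-Sil 5, adjusted p = 0.113) and -0.22 ± 0.17 (TPA). The difference between both chains on the same array changed by -0.99 after NM-203 at 5 µg/cm², -0.84 after Min-U-Sil 5 and -0.82 after NM-203 at 2 µg/cm². Each had p = 0.0286 in an exact two-sided permutation test over 8 arrays, the smallest p that test allows, and an adjusted p of 0.143. With the mean of all probes of each gene the values were -0.60, -0.63 and -0.63 in that order. The Col1a1 probes differed: the dimmer Col1a1 probe changed by -0.36 ± 0.14 after NM-203 at 5 µg/cm² (adjusted p over all probes 0.0425), -0.78 ± 0.14 after Min-U-Sil 5 (5.22e-05), -0.26 ± 0.14 after TPA (0.263) and -0.22 ± 0.14 after NM-203 at 2 µg/cm² (0.252). The last 2 were not called. Its values after NM-203 at 5 µg/cm² were 5.19, 5.19, 5.24 and 5.39 against 5.38, 5.79, 5.61 and 5.67.

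**Figure D4:**
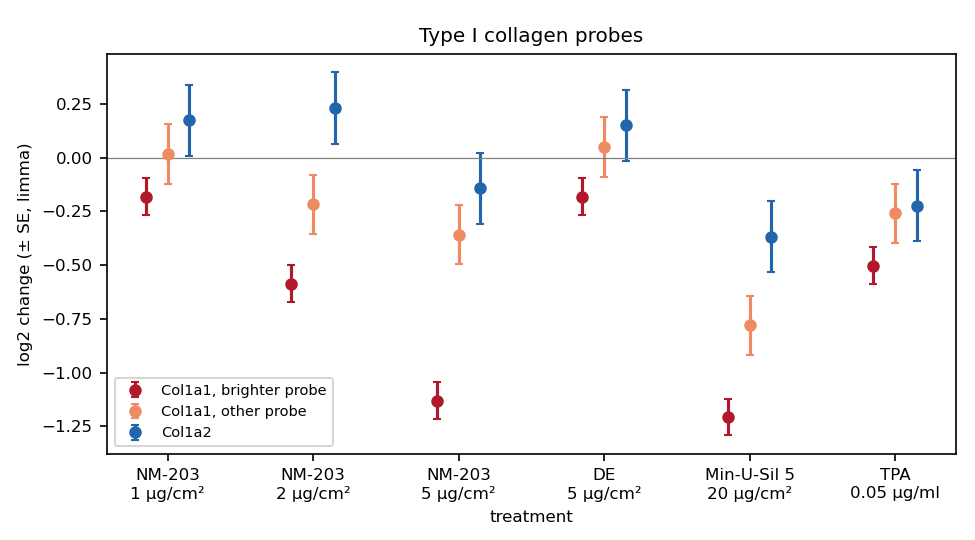
Log2 change (± SE, groups of 4 arrays) of both Col1a1 probes and the Col1a2 probe in each treatment comparison. The brighter Col1a1 probe lies at -1.13 for NM-203 at 5 µg/cm² and the other at -0.36, nearer to Col1a2 at -0.14.

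Partner chains were compared in the same way for types IV, V and VI. In 30 tests (5 pairs in 6 comparisons) 0 passed adjustment, and 6 reached the smallest p of 0.0286. The difference between Col4a1 and Col4a2 changed by 0.04 after NM-203 at 5 µg/cm² (p = 0.886, exact permutation test), and that between Col6a1 and Col6a2 by -0.03 (p = 0.629, exact permutation test). Col6a1 minus Col6a3 differed by 0.46 after TPA and 0.40 after Min-U-Sil 5 (each p = 0.0286 in the exact permutation test, adjusted p = 0.143). Col5a1 minus Col5a2 changed by 0.47 after DE, with the same p values. A design of 4 against 4 arrays cannot give a smaller p. With 30 tests, adjustment can then be passed only if most of them reach that smallest p. The 0 that passed therefore does not show that partner chains changed alike.

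In all, 11 collagens were called in none of the 6 treatment comparisons: Col1a2, Col11a2, Col24a1, Col4a3, Col7a1, Col13a1, Col17a1, Col23a1, Col15a1, Col26a1 and Col28a1. Of these, Col1a2, Col7a1, Col11a2 and Col17a1 were well above background on all 36 arrays, and 24 of the 33 genes in all were. For Col17a1, the transmembrane collagen of hemidesmosomes, the dimmer probe fell by 1.05 ± 0.18 after NM-203 at 5 µg/cm² (adjusted p over all probes 2.79e-05) and by 0.85 ± 0.18 after Min-U-Sil 5. The brighter one gave -0.07 ± 0.20. The dimmer Col11a2 probe fell by 0.68 ± 0.25 after NM-203 at 5 µg/cm², while the brighter changed by 0.02 ± 0.22 and was not called. Among the 11 genes with a second passing probe, that probe was lower in 8 after NM-203 at 5 µg/cm², 6 after Min-U-Sil 5, 5 after NM-203 at 2 µg/cm² and 1 after TPA, and higher in 0. Over all genes tested the shares lower were 19.1%, 13.9%, 8.85% and 6.78% in that order. The lower probe after TPA was that of Col22a1, whose brighter probe was not called. After TPA the second probes of Col1a1, Col5a3, Col6a3, Col11a1 and Col12a1 were not called, though their brighter probes were. At 2 µg/cm² the second probes of Col11a1, Col11a2 and Col22a1 were lower, while their brighter probes were not called. Those of Col1a1, Col4a5, Col5a3 and Col12a1 were not called at that dose, though their brighter probes were.

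Several dim collagens differed between slide 4 and the other slides. Col28a1, an atypical collagen, was well above background on all 6 arrays of slide 4 and on 0 of the other 30, with levels of -5.06 to -4.27 against -7.77 to -5.66. Col4a3, a type IV chain of kidney and lung basement membranes, was on 5 of 6 and 0 of 30. Col24a1, a fibrillar chain, had -2.30 to -1.75 on slide 4 and -6.46 to -3.82 elsewhere. Col15a1, a multiplexin, had -4.46 to -3.95 on slide 4 and -7.71 to -4.94 elsewhere, and was well above background on 6 and 4 arrays. Col28a1 and Col4a3 passed the detection rule through the Min-U-Sil 5 group alone, where 3 of 4 arrays were on slide 4. Their changes against controls in other groups set dim against dim and have no fold.

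**Figure D5:**
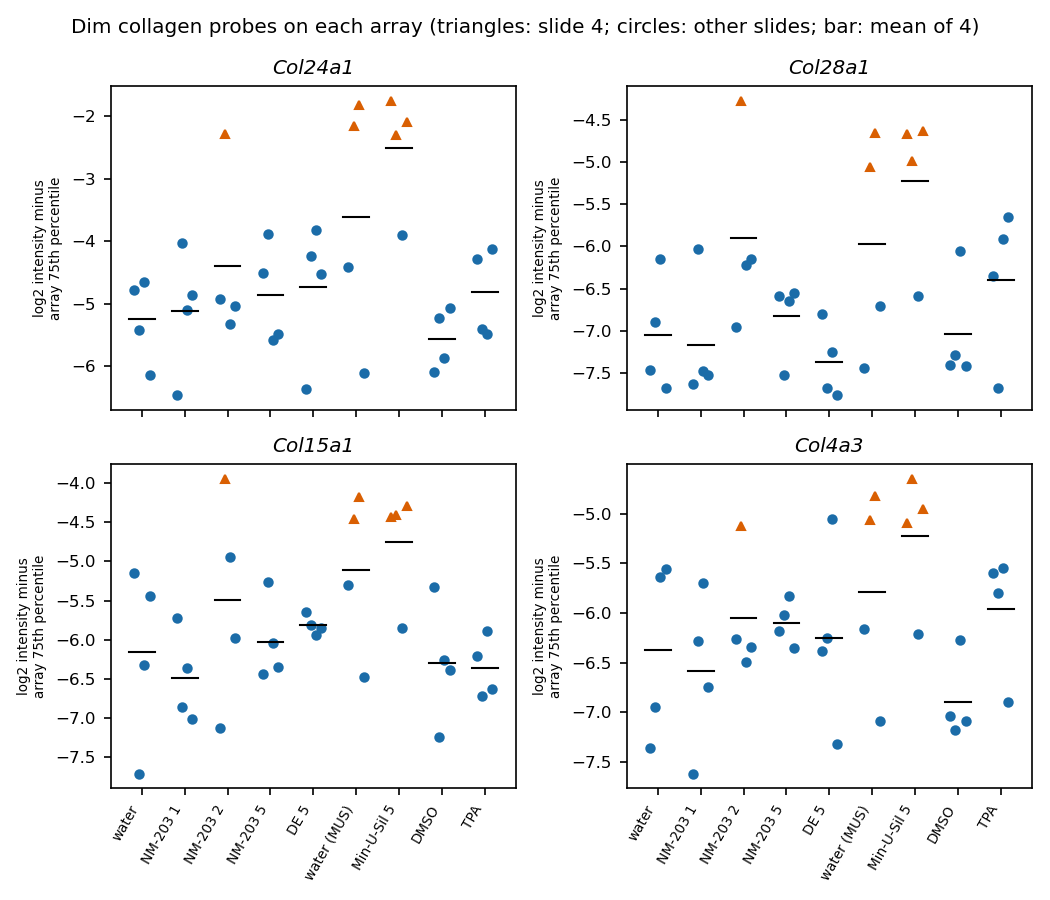
Levels of Col24a1, Col28a1, Col15a1 and Col4a3 on all 36 arrays by group, with triangles for the 6 arrays of slide 4 and a bar for the mean. The triangles lie above nearly all circles whatever the treatment, from -2.30 to -1.75 for Col24a1.

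The second water group was compared with the first to see how far controls of the same treatment differ. Of 33 collagens 3 were lower (Col1a1, Col3a1 and Col6a2) and 2 higher (Col8a1 and Col22a1), where 24.5% of all genes were called, 5.67% lower and 18.8% higher. Scaled on the median gene, all genes split into 4122 lower and 2219 higher against 1841 and 6105, and after normexp and quantile normalization into 2901 and 4520. Col3a1 differed by -0.76 ± 0.15 in the water control of Min-U-Sil 5, with 5.20, 5.19, 5.19 and 5.37, and Col22a1 was 1.15 ± 0.27 higher. All arrays of that control were scanned on the second day. With slide or scan day as a block 0 collagens were called by limma in this comparison, where 78 and 81 of all genes were. Without slide 4 1 collagen was called, where 2678 of all genes were. The water groups share neither slide nor scan day, so the blocks rest on arrays of other groups. For these controls group, slide and scan day cannot be told apart.

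Genes that build, process and bind collagen were counted beside the chains. Over all genes tested, 19.1% were lower and 14.0% higher after NM-203 at 5 µg/cm² (median 0.01), 13.9% and 11.6% after Min-U-Sil 5 (median 0.04), 6.78% and 4.89% after TPA (median -0.04), and 8.85% and 16.2% after NM-203 at 2 µg/cm² (median 0.11). For the biosynthesis genes the counts after TPA and after NM-203 at 2 µg/cm² lay near or below those shares. Of 32 tested genes of collagen biosynthesis and processing, 16 fell and 0 rose after NM-203 at 5 µg/cm² (median -0.30), and 13 fell and 2 rose after Min-U-Sil 5 (median -0.32). After NM-203 at 5 µg/cm² the largest falls were those of Fkbp14 (-1.56 ± 0.38), a chaperone of the endoplasmic reticulum, and Bmp1 (-1.50 ± 0.11), the protease that removes the C-terminal propeptide. After Min-U-Sil 5 they were Bmp1 (-1.13 ± 0.11) and Loxl1 (-1.11 ± 0.16), a cross-linking oxidase, and Tll2 (1.32 ± 0.43) and Loxl4 (0.30 ± 0.10) rose. TPA lowered 2, Loxl1 (-0.67 ± 0.16) and Loxl2 (-0.44 ± 0.15), and raised P3h2 (0.52 ± 0.10), a prolyl hydroxylase. At 2 µg/cm² NM-203 lowered 3, among them Loxl1 (-0.93 ± 0.16) and P4ha1 (-0.56 ± 0.13), and raised 3, among them Tmem38b (0.66 ± 0.16) and Adamts2 (0.45 ± 0.14). DE raised 1, Loxl4 (0.41 ± 0.10), and NM-203 at 1 µg/cm² changed 0 by limma, with 2 at an unadjusted p under 0.05. The share of all genes at that unadjusted p was not counted.

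Of 10 collagen receptors tested, 7 fell and 0 rose after NM-203 at 5 µg/cm² (median -0.94), 7 fell and 0 rose after Min-U-Sil 5 (median -0.82), 5 fell after TPA (median -0.40) and 4 after NM-203 at 2 µg/cm². The shares of all genes lower were 19.1%, 13.9%, 6.78% and 8.85%. Itga10 and Itga11, integrin subunits that bind collagen, fell by 3.09 ± 0.21 and 2.63 ± 0.19 after NM-203 at 5 µg/cm² and by 2.68 ± 0.21 and 1.70 ± 0.19 after Min-U-Sil 5. After TPA Itga10 fell by 1.41 ± 0.21 and Antxr1, an anthrax toxin receptor that binds collagen, by 0.72 ± 0.11. After NM-203 at 2 µg/cm² Itga1 fell by 1.03 ± 0.15 and Itga10 by 0.71 ± 0.21. DE and NM-203 at 1 µg/cm² called 0 receptors by limma, with 4 and 1 at an unadjusted p under 0.05 in that order. The share of all genes at that unadjusted p was not counted.

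Of 17 tested regulators of collagen genes, 8 fell and 4 rose after NM-203 at 5 µg/cm², 7 fell and 3 rose after Min-U-Sil 5, 4 fell and 2 rose after NM-203 at 2 µg/cm², and 2 fell and 1 rose after TPA. Over all genes 33.1%, 25.6%, 25.0% and 11.7% were called. The shares lower were 19.1%, 13.9%, 8.85% and 6.78%, and the shares higher were 14.0%, 11.6%, 16.2% and 4.89%. The counts called in either direction after NM-203 at 2 µg/cm² and after TPA lay near the shares called. DE and NM-203 at 1 µg/cm² called 0 by limma, with 1 and 2 at an unadjusted p under 0.05. The share of all genes at that unadjusted p was not counted. Tgfb2, a ligand of the TGF-beta pathway that drives collagen transcription, fell after NM-203 at 5 µg/cm² (adjusted p = 9.99e-09). It fell by 0.90 ± 0.12 after Min-U-Sil 5, 0.94 ± 0.12 after TPA and 0.70 ± 0.12 after NM-203 at 2 µg/cm². Skil, which encodes the SMAD corepressor SnoN, rose by 1.43 ± 0.12 after NM-203 at 5 µg/cm², 1.29 ± 0.12 after Min-U-Sil 5, 0.77 ± 0.12 after TPA and 0.69 ± 0.12 after NM-203 at 2 µg/cm². Tgfb3 fell by 0.93 ± 0.14 after NM-203 at 5 µg/cm², where Scx, a tendon transcription factor that activates collagen genes, rose by 0.65 ± 0.24. Creb3l1, a factor that activates type I collagen genes, fell by 0.86 ± 0.15 after Min-U-Sil 5, where Smad2 rose by 0.48 ± 0.12. Tgfbr2 fell by 0.45 ± 0.10 after TPA.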

How the data were processed

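Per the file headers, the authors extracted spot intensity from 1-colour arrays with Agilent Feature Extraction 11.0.1.1, which corrected background but did not normalize between arrays. The value table the authors deposited is on a log2 scale and centred per probe; their scaling is unknown, and column medians lie between -0.25 and 0.27. For 33 of 36 arrays the best match was their own column. For 3 Min-U-Sil 5 replicates it was another column of that group, so the scanner files were kept.

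The intensity was taken as log2 minus each array's 75th percentile. Spots marked as outliers, between 74 and 380 on each array, were dropped, and none was saturated. The probe filter was 3 of 4 arrays in at least 1 group, and the brightest passing probe stood for a gene. The 75th percentile of intensity was 531 to 1542. Accessions named 32994 of 56605 probes (22911 genes) through RefSeq (GRCm38.p6), and of 32491 gene names tested 17872 had a symbol. No array coordinates are given.

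All 36 arrays were fitted with 9 group means (limma 3.58.1, R 4.3.3, version 1.17.8 of data.table, 27 residual degrees of freedom). Tested on simulated data for TPA against DMSO (32491 genes), the fit called 56% of genes given a log2 change of 1 and 85% of those given 2. Exact permutation tests compared partner chains. Figures used Python 3.11.15 and matplotlib 3.10.9. The number of arrays limits the precision. Alternatives were another normalization, scaling, filter, probe rule, blocks, the value table, fewer arrays, and leaving out each replicate or, added after seeing the data, slide 4.

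The members, classes and gene lists were chosen with earlier results of these data known. Values on every array are given for the 4 called members of largest change in each treatment comparison; Col12a1, both type I chains, Col16a1 and Col27a1 in further comparisons, Col3a1 in the water comparison, the dim genes and second probes were added after their values were seen. Of the other lists the 2 largest called rises and falls are named.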

Additional observations from a re-analysis of the deposited data

Results flagged for a closer look

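In 5 of 90 groups of 4 arrays checked (the genes whose values are given on every array), 1 array stood far from the other 3, by Dixon's test at the 95% level. Chance flags about 1 in 20 groups. Col27a1 had a level of -3.82 on replicate 2 of NM-203 at 2 µg/cm², where the nearest array was -1.72; that array lies on slide 4. Col16a1 had 2.12 on replicate 3 of NM-203 at 5 µg/cm² (nearest 2.52). Col14a1 had -1.59 on DE replicate 4 (nearest -1.34). Col5a3 had 0.94 on DMSO replicate 4 (nearest 0.77), and Col3a1 had 5.37 on replicate 4 of the Min-U-Sil 5 water control (nearest 5.20).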

How the results depend on the processing

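Of 301 alternative values of the 17 changes given on every array, 290 kept direction and side of the threshold, 11 kept direction and lost the call, and 0 changed direction. Scaled on the median gene, 0 collagens were called after DE, 7 after TPA and 8 in the NM-203 minus TPA difference; that scaling moved the median change of all genes from 0.01 to 0.11 for NM-203 at 5 µg/cm², from -0.02 to 0.10 for NM-203 against DE and from 0.22 to -0.10 between the water groups. For NM-203 at 2 µg/cm² 5 were called with slide as a block, 6 with scan day, and 4 in a fit of the arrays compared alone, which also called 0 after DE. Between the water groups 3 were called with the mean of all probes, 0 with slide or scan day as a block, 3 in the fit of those arrays alone, and 1 without slide 4. The cause of these changes was not tested. Leaving out 1 replicate at a time gave 0 to 0 calls for NM-203 at 1 µg/cm², 9 to 15 at 2 µg/cm², 19 to 20 at 5 µg/cm², 1 to 1 for DE, 19 to 20 for Min-U-Sil 5, 9 to 13 for TPA, 20 to 20 for NM-203 against DE, 14 to 15 for NM-203 minus TPA, 0 to 0 for NM-203 minus Min-U-Sil 5 and 4 to 7 between the water groups.

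The main fit did not pair samples by replicate number. Of 24 pairs of same-numbered arrays (4 in each of 6 comparisons), 6 had correlations over 0.1 (range -0.60 to 0.33). The labels do not tie arrays to experiments, so this check cannot settle whether the numbers pair samples. With the replicate block 0, 13, 20, 1, 20, 13, 20, 14, 0 and 5 collagens were called, in the order of the previous list.

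Depth limits most the 9 genes not well above background on every array. A design of 4 against 4 cannot give an exact p under 0.0286.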
